A study of Mus musculus with 16 samples.

Results

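The genes described are 9 interferon-stimulated genes, Irf7, Irf1, Isg15, Ifit1, Ifit2, Ifit3, Oasl2, Usp18 and Gbp2, chosen by name from the 41079 genes of the count table. All 9 were found in the table and passed the filter on low counts, as did 16742 genes in all. Liver RNA came from 4 groups of 4 mice each, male CRE-, male LKO, female CRE- and female LKO, all on the C57BL/6J background and aged between 20 and 22 months. Every mouse carried Gcgr alleles with LoxP sites around exons of the glucagon receptor gene, and the LKO mice also carried Cre driven by the albumin promoter, which is active in hepatocytes. The CRE- mice were the Cre-negative controls with the intact floxed alleles. Each mouse gave a library of 33268424 to 56488920 reads counted on genes. The question was whether loss of the hepatic glucagon receptor in old age goes with a different level of interferon-responsive transcripts, in each sex.

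Interferons are secreted proteins that cells release when they sense viral or misplaced nucleic acids or other danger signals. Type I interferons act through their receptor on genes with interferon-stimulated response elements (ISRE), while interferon gamma acts through a receptor of its own on genes with gamma-activated sites (GAS). Hepatocytes and Kupffer cells, the resident macrophages of the liver, both respond to interferons, and the genes that follow are among the best known targets.

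Gcgr, the targeted gene, was measured first as a check of the labels. Female CRE- mice had 162, 208, 201 and 180.0 CPM (counts scaled to library size with TMM factors) in replicates 1 to 4, and female LKO mice had 48.8, 132, 119 and 93.6 CPM. Male CRE- mice had 190.4, 193, 127 and 189.6 CPM and male LKO mice had 117, 136, 129.9 and 160.3 CPM. Every female LKO library was below every female control, whereas in males the control replicate 3 lay within the LKO range. The count takes in reads of the whole gene, also of exons outside the deleted ones, so a remaining count does not measure intact transcript. As log2 fold change the difference was -0.93 (adjusted p = 0.0443 by edgeR, SE 0.25) in females and -0.37 (adjusted p = 0.671 by edgeR, SE 0.24) in males, where edgeR stands, here and below, for its quasi-likelihood test adjusted by the method of Benjamini and Hochberg over all genes tested. The female call passed in only 4 of the 16 fits that left out 1 library, those without male CRE- 2, male CRE- 3, male LKO 1 or female LKO 2. In those 16 fits its adjusted p ran from 0.0220 without female LKO 2 to 0.134 without female CRE- 2. With all libraries and no filter on low counts it was 0.0545 by edgeR, and with the females fitted alone 0.132. The female call passed with RLE normalization (adjusted p = 0.0485 by edgeR) and with a block for replicate number (adjusted p = 0.0266 by edgeR). It also passed by DESeq2 (adjusted p = 0.00807 by DESeq2).

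The liver label was checked against 8 hepatocyte markers, all of which were present in every library. Their summed level was 76576, 106426, 114275 and 102105 CPM in male CRE- mice and 70130.3, 85370.4, 99178 and 85381 CPM in male LKO mice. It was 126997, 119510, 125357 and 139229 CPM in female CRE- mice and 62374, 98347, 97842 and 77688 CPM in female LKO mice. The lowest of the 16 sums was that of female LKO replicate 1. Alb was the most abundant of the 8, and 0 of the 8 passed in edgeR in either sex. At an unadjusted p under 0.05, 2 of the 8 were lower in female LKO mice and 2 in male LKO mice. Of all genes tested, 21.4% had such a p in females and 9.53% in males, in either direction. DESeq2 called 1 in females, against 10.8% of all genes, and 0 in males, against 2.02%. The median log2 fold change of the 8 was -0.62 in females (-0.38 without female LKO replicate 1) and -0.25 in males.

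In edgeR, none of the 9 interferon-stimulated genes differed between LKO and CRE- mice beyond the threshold in either sex, while DESeq2 called 2 in females. Adding a block for replicate number to the edgeR fit gave 1 member called in females, Oasl2, with 1244 of all genes called. Usp18 alone had an unadjusted p under 0.05 in both sexes, with a higher mean in LKO mice of each. Ifit1, Ifit2, Ifit3, Oasl2, Irf7 and Gbp2 were highest of all 16 mice in a single animal, female LKO replicate 1, while Irf1 and Isg15 were highest in female CRE- replicate 4. In edgeR, 0 of 9 members were called in females, against 4.24% of all genes tested, and 0 of 9 in males, against 0.454%. The sex by genotype interaction likewise called 0 of 9 members, against 0% of all genes. At an unadjusted p under 0.05 the counts were 3 of 9 in females (Ifit2, Oasl2 and Usp18), against 21.4% of all genes, and 1 of 9 in males (Usp18), against 9.53%. For the interaction the count was 2 of 9 (Ifit2 and Oasl2), against 15.96%. DESeq2 called 2 members in females (Ifit2 and Usp18), against 10.8% of all genes. It called 0 in males and 0 in the interaction, against 2.02% and 2.22% of all genes.

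Irf7 and Irf1 are transcription factors of the response, Irf7 amplifying type I interferon production and Irf1 acting downstream of interferon gamma. Irf7 (GRCm39 chr7:140843096-140846412, minus strand) was at 57.1, 38.02, 44.3 and 63.6 CPM in female CRE- replicates 1 to 4 and at 111, 66.8, 78.7 and 59.2 CPM in female LKO mice. In males it was at 73.6, 48.4, 30.2 and 102 CPM in CRE- and 74.4, 41.8, 62.1 and 35.7 CPM in LKO mice. Of the 4 female LKO mice, 3 were above the highest female control and replicate 4 was below it, so the groups overlapped, and the male groups overlapped. The log2 fold change of Irf7 was 0.64 (adjusted p = 0.280 by edgeR, SE 0.33) in females and -0.25 (adjusted p = 0.842 by edgeR, SE 0.33) in males. In females the value without female LKO replicate 1 was 0.44, and in males leaving out 1 library gave -0.50 (without male CRE- 3) to 0.076 (without male CRE- 4).

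Irf1 (chr11:53660841-53669200, plus strand) ranged from 51.4 to 81.6 CPM in female CRE- and from 51.00 to 60.1 CPM in female LKO mice, with overlap. In males it ranged from 20.6 to 68.1 CPM in CRE- and from 38.7 to 58.5 CPM in LKO mice. The 2 lowest male controls, replicates 2 and 3, lay below all male LKO mice, and the 2 other controls above them. As log2 fold change Irf1 was at -0.17 (adjusted p = 0.792 by edgeR, SE 0.29) in females and 0.045 (adjusted p = 0.977 by edgeR, SE 0.29) in males. Leaving out 1 library gave -0.25 (without female CRE- 2) to 0.010 (without female CRE- 4) in females and -0.22 (without male CRE- 3) to 0.28 (without male CRE- 4) in males, so the sign depended on single mice in both.

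Ifit1, Ifit2 and Ifit3 encode proteins with tetratricopeptide repeats that bind foreign RNA or take part in the antiviral complex that does so. The 3 genes are on the plus strand of chromosome 19, Ifit2 at chr19:34527961-34553934, Ifit3 at chr19:34560519-34566382 and Ifit1 at chr19:34618289-34627409. Reads that aligned to several places were not counted by the authors, so values for Ifit3, which has the near-identical copy Ifit3b, are uncertain.

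Ifit2 was at 6.48, 4.55, 5.75 and 6.47 CPM in female CRE- replicates 1 to 4 and at 61.2, 5.39, 8.999 and 11.9 CPM in female LKO mice. In male mice it was at 7.06, 4.05, 20.3 and 7.19 CPM in CRE- and 11.4, 4.62, 8.10 and 3.73 CPM in LKO animals. Female LKO replicate 1 was far above the other 15 mice, replicates 3 and 4 were above every female control, and replicate 2 was among the controls. Among males the highest value belonged to a control, replicate 3, and the groups overlapped. The difference in log2 was 1.91 (adjusted p = 0.0985 by edgeR, SE 0.65) in females, with 3 of 4 LKO mice above the highest control, and -0.47 (adjusted p = 0.846 by edgeR, SE 0.63) in males. Without female LKO replicate 1 the female value was 0.61 (adjusted p = 0.588 by edgeR, SE 0.47), and without female LKO replicate 2 it was 2.23 and passed (adjusted p = 0.0395). DESeq2 gave 1.90 with all libraries (adjusted p = 0.0217 by DESeq2, SE 0.60). In males leaving out 1 library gave -0.83 (without male LKO 1) to 0.17 (without male CRE- 3).

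Ifit1 had the same single high mouse. Female CRE- mice had 15.04, 8.76, 10.1 and 19.9 CPM and female LKO mice had 57.2, 8.93, 11.1 and 13.9 CPM. The values in males were 8.97, 9.85, 15.3 and 12.5 CPM in CRE- and 12.9, 9.83, 16.1 and 7.02 CPM in LKO mice. Apart from female LKO replicate 1, the female LKO values lay within the range of the controls, and the male groups overlapped. The female log2 fold change was 0.76 (adjusted p = 0.395 by edgeR, SE 0.48), and it reversed to -0.23 (adjusted p = 0.796 by edgeR, SE 0.32) without female LKO replicate 1. Male mice gave -0.026 (adjusted p = 0.995 by edgeR, SE 0.48), and with 1 library left out -0.23 (without male LKO 3) to 0.14 (without male LKO 4).

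Ifit3 stood at 17.01, 12.2, 18.7 and 30.1 CPM in female CRE- and 53.7, 17.4, 19.3 and 15.2 CPM in female LKO mice. Corresponding male values were 18.5, 15.6, 19.4 and 23.7 CPM in CRE- and 22.8, 15.2, 21.5 and 10.6 CPM in LKO mice. Here too replicate 1 was the only female LKO mouse above the highest female control, replicate 4. Its log2 difference was 0.44 (adjusted p = 0.550 by edgeR, SE 0.37) in females and -0.14 (adjusted p = 0.930 by edgeR, SE 0.37) in males. With 1 library left out the female value ran from -0.15 (without female LKO 1) to 0.73 (without female CRE- 4) and the male value from -0.31 (without male LKO 1) to 0.025 (without male LKO 4).

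Oasl2 encodes a protein related to the oligoadenylate synthetases, enzymes that make the activator of the antiviral ribonuclease RNase L. Oasl2 (chr5:115034995-115050306, plus strand) was at 8.94, 4.69, 6.42 and 8.13 CPM in female CRE- and 28.4, 8.30, 10.2 and 11.8 CPM in female LKO mice. In male CRE- mice it was at 12.7, 5.26, 6.14 and 14.3 CPM and in male LKO mice at 10.5, 5.31, 8.40 and 5.67 CPM. Of the female LKO mice, 3 were above every female control and replicate 2 was between the controls, while in males the 2 highest values were from controls. LKO over CRE- in log2 was 1.06 (adjusted p = 0.136 by edgeR, SE 0.40) in females and -0.37 (adjusted p = 0.805 by edgeR, SE 0.40) in males. With a block for replicate number the female value was 0.95 and passed (adjusted p = 0.0452 by edgeR). The labels do not say that same-numbered mice are paired, and the original library names number some of the mice otherwise. Without female LKO replicate 1 the female value was 0.54 (adjusted p = 0.512 by edgeR, SE 0.35), and with 1 library left out the male value ran from -0.59 (without male LKO 1) to -0.11 (without male CRE- 4).

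Gbp2 encodes a guanylate-binding GTPase of the response to interferon gamma that acts on intracellular pathogens. Gbp2 (chr3:142326424-142343769, plus strand) ranged from 11.4 to 34.4 CPM in female CRE- and from 15.2 to 50.4 CPM in female LKO mice. In males the ranges were 6.84 to 19.6 CPM in CRE- and 5.24 to 28.04 CPM in LKO mice. The groups overlapped in both sexes, and the highest control was female CRE- replicate 4. On the log2 scale Gbp2 gave 0.57 (adjusted p = 0.586 by edgeR, SE 0.53) in females and 0.13 (adjusted p = 0.956 by edgeR, SE 0.53) in males. With 1 library left out these were 0.10 (without female LKO 1) to 1.06 (without female CRE- 4) in females and -0.49 (without male LKO 1) to 0.43 (without male CRE- 4) in males.

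Isg15 is a ubiquitin-like protein that is attached to other proteins during the response, and Usp18 is the protease that removes it and that also holds back signalling at the type I interferon receptor. Isg15 (chr4:156283881-156285275, minus strand) ranged from 9.30 to 19.4 CPM in female CRE- and from 10.6 to 17.02 CPM in female LKO mice. In males the ranges were 6.19 to 12.7 CPM in CRE- and 7.02 to 14.2 CPM in LKO mice. The groups overlapped in both sexes. Isg15 had a log2 fold change of -0.011 in females (SE 0.29) and 0.28 in males (SE 0.29), and neither passed. These became -0.15 (without female CRE- 2) to 0.22 (without female CRE- 4) in females and 0.11 (without male CRE- 3) to 0.47 (without male CRE- 4) in males with 1 library left out.

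Usp18 (chr6:121222865-121247876, plus strand) was at 8.85, 7.26, 8.93 and 11.9 CPM in female CRE- replicates 1 to 4 and at 14.8, 25.7, 16.1 and 18.1 CPM in female LKO mice. Male CRE- mice had 12.6, 6.48, 4.63 and 12.3 CPM and male LKO mice had 27.2, 12.2, 19.2 and 9.27 CPM. In females every LKO value was above every control value, the only member of the 9 with that separation, against 5.20% of all genes tested with LKO above control in all mice. In males 2 of the 4 LKO mice were above the highest control and the groups overlapped, and 0 of 9 members were separated that way, against 3.57% of all genes. Usp18 thus had a log2 fold change of 1.01 (adjusted p = 0.100 by edgeR, SE 0.35) in females and 0.92 (adjusted p = 0.377 by edgeR, SE 0.35) in males. Its unadjusted p was 0.00996 in females and 0.0178 in males by edgeR. Female LKO replicate 1, highest for 6 other members, had the lowest Usp18 of its group, and without it the female value was 1.13 (adjusted p = 0.142 by edgeR, SE 0.37). The female value was lowest, 0.82, without female LKO replicate 2, and the male value was 0.57 without male LKO replicate 1. DESeq2 gave 1.02 in females (adjusted p = 0.0444 by DESeq2) and 0.90 in males (adjusted p = 0.235 by DESeq2).

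**Figure D1:**
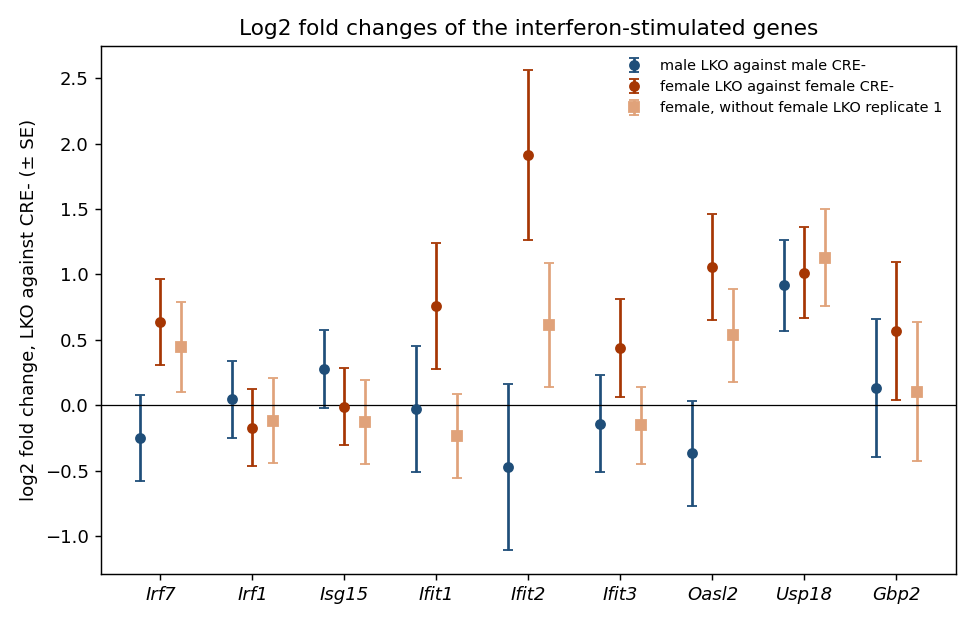
Log2 fold change of each gene in LKO against sex-matched CRE- mice (points) with its SE (bars), for males, females and females without female LKO replicate 1. Leaving out that mouse moves Ifit2 from 1.91 to 0.61 and Ifit1 from 0.76 to -0.23, while Usp18 goes from 1.01 to 1.13.

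The interaction asks whether the LKO difference was larger in one sex. It was 2.38 (adjusted p = 0.242 by edgeR, SE 0.91) for Ifit2, 1.42 (adjusted p = 0.255 by edgeR, SE 0.57) for Oasl2 and 0.89 (adjusted p = 0.350 by edgeR, SE 0.47) for Irf7, in log2 of the female over the male fold change. For Usp18 it was 0.099 (adjusted p = 0.942 by edgeR, SE 0.49). No member passed. With 1 library left out Usp18 gave -0.094 (without female LKO 2) to 0.45 (without male LKO 1) and Irf7 0.56 (without male CRE- 4) to 1.14 (without male CRE- 3). Without female LKO replicate 1 the interaction was 1.09 for Ifit2 and 0.91 for Oasl2, and it reversed for Ifit1, from 0.78 to -0.21.

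Over the 9 members the median log2 fold change was 0.64 in females, against 0.035 over all genes tested, with 7 members above 0 and 2 below. Without female LKO replicate 1 the female median was 0.10, with 5 members above 0, and without female CRE- replicate 4 it was 1.003. In males the median was -0.026, against -0.0078 over all genes, with 4 members above 0 and 5 below. The male median ran from -0.31 without male LKO 1 to 0.12 without male LKO 4. For the interaction the median was 0.58, against 0.035 over all genes, and it was -0.0078 without female LKO replicate 1.

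Each member's log2 CPM was also standardized over the 16 libraries and averaged over the 9, which gives each mouse a mean level in SD units. It was 0.088, -0.81, -0.41 and 0.71 in female CRE- replicates 1 to 4 and 1.87, 0.062, 0.34 and 0.31 in female LKO mice. Male CRE- mice were at 0.15, -0.998, -0.94 and 0.53 and male LKO mice at 0.64, -0.51, 0.16 and -1.18. Female LKO replicate 1 was the highest of all, the other 3 female LKO mice were inside the range of the female controls, and the male groups overlapped. Male CRE- replicate 3 held the lowest value of Irf7, Irf1, Isg15 and Usp18, and male LKO replicate 4 that of Ifit1, Ifit2, Ifit3 and Gbp2.

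The members did not all vary together across mice. Over the 16 libraries, as a description, the Pearson r of log2 CPM was 0.89 between Ifit1 and Ifit3, 0.86 between Ifit1 and Ifit2 and 0.88 between Irf7 and Oasl2. Usp18 followed the Ifit genes little, with r of 0.14 with Ifit1, 0.15 with Ifit2 and 0.29 with Ifit3, and Irf1 had r of -0.12 with Ifit2. The median over the 36 pairs was 0.63. Over the 15 libraries without female LKO replicate 1 it was 0.59, and r between Ifit1 and Ifit2 was 0.61. Libraries of 4 groups are pooled in these values, so group differences enter them.

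Levels between genes were compared per length, as CPM per kilobase of exon. Over the 16 mice the order was Irf7 (31.9 ± 11.8, SD, n = 16), Irf1 (15.8 ± 4.30) and Isg15 (15.6 ± 4.90). Below these came Ifit3 (7.73 ± 3.72), Usp18 (7.61 ± 3.67) and Gbp2 (7.34 ± 4.81). Ifit1 (5.63 ± 4.47), Oasl2 (3.09 ± 1.83) and Ifit2 (2.54 ± 3.21) were lowest. The steps from Irf7 to Irf1 and from Isg15 to Ifit3 were larger than the SD of either gene, and the other neighbours in the order differed by less than the larger of their 2 SDs. The order was not the same in every group. Usp18 was above Ifit3 in LKO mice (9.59 against 6.55 in males and 10.5 against 9.85 in females) and below it in CRE- mice (5.08 against 7.22 and 5.22 against 7.29). Isg15 was above Irf1 in LKO mice (14.7 against 14.4 in males and 17.8 against 16.4 in females), and Gbp2 was above Ifit3 and Usp18 in both female groups (7.49 in CRE- and 11.1 in LKO mice).

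Upstream of the members, transcripts of the interferons themselves were nearly absent. Of 20 interferon genes, 17 had 0 reads in every library, and Ifnb1 had 2 reads in all, both in male LKO replicate 1. Ifnk had 6 reads in 2 libraries. Ifng, the sole ligand tested, had 102 reads over 13 libraries, with the most, 22, in male CRE- replicate 4, and log2 fold changes of 0.14 (adjusted p = 0.966 by edgeR, SE 1.18) in females and -0.12 (adjusted p = 0.986 by edgeR, SE 1.15) in males. With 1 library left out the values of Ifng were -1.63 (without female LKO 3) to 1.94 (without female CRE- 1) in females and -0.53 (without male CRE- 3) to 1.16 (without male CRE- 4) in males. The counts of the other 19 were too low for a test.

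Among 6 receptor subunits, Il10rb, which serves interferon lambda and interleukin 10 receptors, rose in female LKO mice. It was at 15.3, 13.4, 15.1 and 18.8 CPM in female CRE- and 39.6, 23.7, 25.8 and 25.3 CPM in female LKO mice. Every LKO mouse was above every control, as for 5.20% of all genes tested. The log2 fold change of Il10rb was 0.87 (adjusted p = 0.0493 by edgeR, SE 0.24). In males the value was 0.016, or with 1 library left out -0.14 (without male CRE- 2) to 0.26 (without male CRE- 4), and the interaction did not pass (0.86, SE 0.34, adjusted p = 0.252 by edgeR). At an unadjusted p under 0.05, 3 of the 6 were higher in female LKO mice, among them Ifngr2, a subunit of the interferon gamma receptor (log2 fold change 0.72, SE 0.23, adjusted p = 0.0812 by edgeR), and DESeq2 called 3. Of all genes tested, 21.4% had such an unadjusted p in females, in either direction, and DESeq2 called 10.8%. Ifngr2 passed in edgeR without female LKO 2, at an adjusted p of 0.0302. The median of the 6 was 0.74 in females (0.61 without female LKO replicate 1) and -0.055 in males, where 0 passed by edgeR, 0 at an unadjusted p under 0.05 and 0 by DESeq2.

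Of 12 signal transducers, 0 passed in edgeR in females and 0 in males. An unadjusted p under 0.05 was found for 21.4% of all genes in females and 9.53% in males. Of the 12, 1 was higher and 1 lower at that p in females, and 2 were lower in males. Those in males were Stat3 (log2 fold change -0.71, SE 0.25, adjusted p = 0.331 by edgeR) and Stat2 (-0.55, SE 0.21, adjusted p = 0.372 by edgeR). Stat3 was at 161, 149, 133 and 144 CPM in male CRE- and 86.05, 79.1, 100.8 and 93.4 CPM in male LKO mice, with no overlap. The share of all genes with every LKO mouse below every control was not counted. In females Stat3 was at 276, 108, 109 and 124 CPM in CRE- and 190.5, 175, 148 and 187 CPM in LKO mice, with overlap through female CRE- replicate 1 alone. The female log2 fold change of Stat3 was 0.18, and without that control it was 0.62 and passed (adjusted p = 0.0495 by edgeR). Those in females were Irf3 (-0.50, SE 0.16, adjusted p = 0.0773 by edgeR), a sensor-activated factor, and Irf5 (0.87, SE 0.41, adjusted p = 0.231 by edgeR). Irf5 was at 60.6 CPM in female LKO replicate 1, and its value without that mouse was 0.29. DESeq2 called 1 of the 12 in females, lower, and 0 in males. The median of the 12 was 0.13 in females (-0.070 without female LKO replicate 1) and -0.11 in males.

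Among 9 inhibitors of the signal, 1 rose in females, Ptpn1, a phosphatase that acts on Jak2 and Tyk2. It was at 50.9, 30.7, 26.9 and 32.6 CPM in female CRE- and 115, 38.4, 60.8 and 63.3 CPM in female LKO mice. On the log2 scale the difference was 0.98 (adjusted p = 0.0483 by edgeR, SE 0.26). Replicate 2 of the female LKO mice lay below the highest control, replicate 1. Without female LKO replicate 1 the value was 0.64 (adjusted p = 0.158 by edgeR, SE 0.22). In males it was -0.42 (adjusted p = 0.653 by edgeR, SE 0.26) and the interaction was 1.39 (adjusted p = 0.168 by edgeR, SE 0.37). DESeq2 gave 1.41 for the interaction of Ptpn1, which passed (adjusted p = 0.0278 by DESeq2). Ptpn6, a phosphatase of blood cells, had a log2 fold change of 0.92 (adjusted p = 0.134 by edgeR, SE 0.35) in females and 0.38 without female LKO replicate 1, and it passed without female LKO 2 (1.14, adjusted p = 0.0437 by edgeR). In females 2 of the 9 were higher at an unadjusted p under 0.05, against 21.4% of all genes in either direction. DESeq2 called 1, against 10.8% of all genes. For the 9 the median was 0.22 in females and 0.074 in males, where 0 passed by edgeR, 0 at an unadjusted p under 0.05 and 0 by DESeq2.

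Other antiviral interferon-stimulated genes were 38 in number, all tested, and 0 passed in edgeR in either sex. At an unadjusted p under 0.05, 12 were higher and 2 lower in female LKO mice, and 0 were higher and 2 lower in male LKO mice. Of all genes tested, 21.4% had such a p in females and 9.53% in males, in either direction. DESeq2 called 3 in females, all higher, against 10.8% of all genes, and 0 in males, against 2.02%. The median log2 fold change of the 38 was 0.52 in females, 0.12 without female LKO replicate 1, and -0.15 in males. Slfn5 was at 22.8, 15.2, 16.9 and 22.99 CPM in female CRE- and 172, 21.2, 26.4 and 23.7 CPM in female LKO mice, so that replicate 1 alone was far above the controls, and its log2 fold change of 1.65 (adjusted p = 0.0925 by edgeR, SE 0.55) was 0.31 without that mouse. Without female LKO 2 it was 1.93 and passed (adjusted p = 0.0387 by edgeR). Oas2, an oligoadenylate synthetase, was at 5.68, 3.08, 2.92 and 1.44 CPM in female CRE- and 14.5, 5.11, 8.10 and 7.14 CPM in female LKO mice. As log2 fold change Oas2 gave 1.41 (adjusted p = 0.0920 by edgeR, SE 0.47) in females, 1.07 without female LKO replicate 1, and -0.78 in males (-0.29 without male CRE- 1). The 2 with the smallest p in males were the RNA sensor Ifih1 (-0.48, SE 0.21, adjusted p = 0.476 by edgeR) and Dtx3l (-0.46, SE 0.21, adjusted p = 0.496 by edgeR).

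Of 29 other genes of the response to interferon gamma, 28 were tested and 0 passed in edgeR in either sex. At an unadjusted p under 0.05, 2 were higher in female LKO mice, Gbp9 (log2 fold change 1.04, SE 0.34, adjusted p = 0.0853 by edgeR) and Gbp8 (1.57, SE 0.53, adjusted p = 0.0940 by edgeR), both guanylate-binding proteins of a family with similar members. These are 2 of the 28. Of all genes tested, 21.4% had such a p in females and 9.53% in males, in either direction. DESeq2 called 2 in females, against 10.8% of all genes, and 0 in males, against 2.02%. Both passed in edgeR without female LKO 2, Gbp9 at an adjusted p of 0.0486 and Gbp8 at 0.0428. Gbp9 was at 10.1, 8.93, 9.22 and 7.64 CPM in female CRE- and 27.9, 12.2, 17.6 and 15.8 CPM in female LKO mice. The groups did not overlap, and 5.20% of all genes had LKO above control in all female mice. The male gene with an unadjusted p under 0.05 was Nlrc5, an activator of class I antigen presentation genes, with a lower mean in LKO mice (-0.85, SE 0.35, adjusted p = 0.416 by edgeR), and -0.53 without male CRE- 1. Psmb9, a subunit of the immunoproteasome, had the next smallest p in males (-0.69, SE 0.37, adjusted p = 0.583 by edgeR), and its value was -0.38 without male CRE- 4. Over the 28 the median was 0.14 in females (0.057 without female LKO replicate 1) and -0.24 in males.

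Markers of macrophages moved with the members across mice. The summed level of 11 macrophage and Kupffer cell markers was 1090.1, 789, 884 and 1711 CPM in female CRE- replicates 1 to 4 and 4529.7, 1429, 3154 and 2011 CPM in female LKO mice. In males it was 1302, 644, 348 and 1944 CPM in CRE- and 1713, 908, 994 and 896 CPM in LKO mice. Female LKO replicate 1 was the highest of the 16 and male CRE- replicate 3 the lowest, and the female groups overlapped through LKO replicate 2. Over 16 libraries the Pearson r between the log2 sum and the mean standardized level of the members was 0.87, and 0.81 over the 15 without female LKO replicate 1. Cd5l was the most abundant of the 11, with 991, 285, 583 and 248 CPM in female LKO mice, and no marker of the 11 was at 0 in any library. Of the 11, 1 rose in females, Adgre1 (log2 fold change 2.15, SE 0.57, adjusted p = 0.0451 by edgeR), which was at 334 CPM in replicate 1 and from 45.2 to 99.4 CPM in the others, and whose value without replicate 1 was 1.21 (adjusted p = 0.187 by edgeR, SE 0.45). By unadjusted p under 0.05, 9 of the 11 were higher in female LKO mice, against 21.4% of all genes in either direction. DESeq2 called 7 as higher, against 10.8% of all genes in either direction. All 11 had values above 0 in females, with a median of 1.38 (0.92 without female LKO replicate 1), and the median was 0.057 in males. The part of macrophage number in the values of the members was not tested, and in whole liver RNA more cells of a type and more RNA per cell cannot be told apart.

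**Figure D2:**
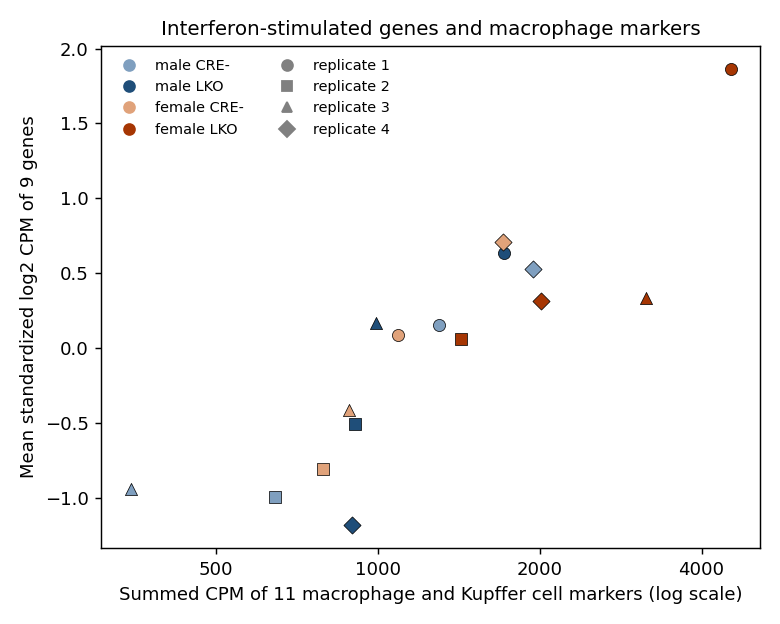
Mean standardized log2 CPM of the 9 interferon-stimulated genes (vertical axis, SD units) against the summed CPM of 11 macrophage and Kupffer cell markers (horizontal axis, log scale) in each of 16 mice, with colour for the group and shape for the replicate. Female LKO replicate 1 lies at the top right, at 1.87 and 4529.7 CPM.

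T and NK cell markers, 11 in all, summed to 28.9, 12.8, 18.5 and 36.1 CPM in female CRE- and 46.1, 25.7, 41.4 and 23.5 CPM in female LKO mice. In male CRE- mice the sum was 31.1, 11.99, 8.97 and 34.1 CPM and in male LKO mice 34.2, 20.4, 15.7 and 11.5 CPM, with overlap in both sexes. Its r with the mean level of the members was 0.88 over 16 libraries and 0.90 over 15. Il2rb was the most abundant, and none of the 11 passed in edgeR or DESeq2, with 1 higher in females and 0 in males at an unadjusted p under 0.05. Of all genes tested, 21.4% had such a p in females and 9.53% in males, in either direction. The median of the 11 was 0.48 in females (0.29 without female LKO replicate 1) and -0.15 in males. Their part in the result was not tested.

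The 5 monocyte markers summed to 41.3, 17.3, 22.1 and 27.6 CPM in female CRE- and 174, 36.7, 77.6 and 163 CPM in female LKO mice, and to 48.8, 16.6, 21.7 and 64.6 CPM in male CRE- and 43.9, 21.2, 19.2 and 17.7 CPM in male LKO mice. Of the 5, 2 rose in females, Itgam (2.57, SE 0.64, adjusted p = 0.0369 by edgeR) and Chil3 (4.94, SE 1.17, adjusted p = 0.0305 by edgeR), and the most abundant was Plac8. By unadjusted p under 0.05, 5 of the 5 were higher in female LKO mice, and by DESeq2 4. The shares of all genes, in either direction, were 21.4% and 10.8%. In the interaction 0 of the 5 passed by edgeR, 5 had an unadjusted p under 0.05 and DESeq2 called 4. There the shares of all genes were 15.96% at that p and 2.22% by DESeq2. Replicates 1 and 4 of the female LKO mice had the 2 highest sums, and replicate 2 lay below the highest female control. Over the 5 the median was 2.29 in females and -0.77 in males, where 0 passed by edgeR, 0 at an unadjusted p under 0.05 and 0 by DESeq2. Their part in the result was not tested. The r of their log2 sum with the mean level of the members was 0.78 over 16 libraries and 0.67 over 15.

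The 7 neutrophil markers summed to 36.04, 20.6, 16.8 and 16.8 CPM in female CRE- and 112, 44.3, 59.3 and 506 CPM in female LKO mice, where replicate 4 was highest. In males they summed to 74.4, 20.6, 17.4 and 134 CPM in CRE- and 27.1, 16.6, 12.97 and 12.5 CPM in LKO mice. Ly6g was at 0 in some libraries and was not tested. Of the 6 tested, 2 rose in females, Mmp8 (3.50, SE 0.79, adjusted p = 0.0266 by edgeR) and Retnlg (2.86, SE 0.69, adjusted p = 0.0331 by edgeR). In female LKO mice 6 of the 6 were higher at an unadjusted p under 0.05, and DESeq2 called 6. The female shares of all genes, in either direction, were 21.4% and 10.8%. In male LKO mice 5 of the 6 were lower at an unadjusted p under 0.05 and 0 passed in edgeR, while DESeq2 called 1. The male shares of all genes were 9.53% at that p and 2.02% by DESeq2. The median of the 6 was 3.02 in females, -1.87 in males and 4.89 in the interaction. In the interaction 0 of the 6 passed by edgeR with all libraries, 6 had an unadjusted p under 0.05 and DESeq2 called 6. The interaction shares of all genes were 15.96% at that p and 2.22% by DESeq2. Mmp8 passed in the interaction in 3 of the 16 fits with 1 library left out. Its lowest adjusted p there was 0.0318 by edgeR, without female LKO 2. The most abundant, S100a9, was at 39.9, 17.6, 24.9 and 258 CPM in female LKO mice, so that its highest mouse was another one than for the Ifit genes. Without female LKO 4 the female value of S100a9 went from 3.17 to 1.54. In that fit Mmp8 went from 3.50 to 2.66 and Retnlg from 2.86 to 2.04, and Mmp8 and Retnlg did not pass. Without male CRE- 4 the male value went from -2.23 to -1.29 for S100a9 and from -1.52 to -0.64 for Retnlg. The r of the log2 sum with the mean level of the members was 0.55 over 16 libraries and 0.49 over 15, and the part of these cells in the result was not tested.

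Of 6 endothelial markers 1 rose in females, Cdh5 (0.79, SE 0.17, adjusted p = 0.0249 by edgeR), at 36.4, 38.5, 36.8 and 27.7 CPM in female CRE- and 72.9, 42.5, 63.7 and 61.8 CPM in female LKO mice. Of the 6, 4 were above 0 and 2 below, among these Clec4g, at -0.70 (adjusted p = 0.332 by edgeR, SE 0.40) in females. In males Clec4g was at 0.77 (0.45 without male CRE- 3), and its interaction was -1.48 (adjusted p = 0.243 by edgeR, SE 0.57). By unadjusted p under 0.05, 3 of the 6 were higher in female LKO mice, and by DESeq2 2. The shares of all genes, in either direction, were 21.4% and 10.8%. Stab2 was the most abundant, and the median of the 6 was 0.52 in females (0.36 without female LKO replicate 1) and 0.23 in males, where 0 passed by edgeR, 0 at an unadjusted p under 0.05 and 0 by DESeq2. In edgeR 0 of 7 B and plasma cell markers, 0 of 5 stellate cell markers, 0 of 5 cholangiocyte markers and 0 of 5 plasmacytoid dendritic cell markers passed in females or males, and DESeq2 called 0 of each. Of all genes tested, 21.4% had an unadjusted p under 0.05 in females and 9.53% in males. At that p the B and plasma cell list had 1 higher in females and the other 3 lists had 0. In males all of these lists had 0. Their medians in females were 0.49, -0.15, 0.24 and 0.071, in that order, and in males 0.15, -0.57, 0.44 and -0.37. The stellate sum was highest in male CRE- replicate 3 (468 CPM), and without that mouse the male value of Lrat went from -0.57 to 0.12 and that of Reln from -0.91 to 0.018. Without female LKO replicate 1 the female medians were 0.50, -0.37, 0.25 and 0.0028. Among the B and plasma cell markers, the female value of Ighm went from 0.49 to 0.027 without female LKO 3. In the same fit that of Jchain went from 0.76 to 0.058 and that of Mzb1 from 0.32 to -0.17. The most abundant genes of these lists, in the same order, were Ighm, Dcn, Spp1 and Bst2. Bst2 is itself interferon-responsive and among the 38 antiviral genes. Of the 5 markers listed for plasmacytoid dendritic cells, the main producers of type I interferon, Siglech, Ccr9 and Klk1 were at 0 in some libraries.

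The 8 genes of these lists that passed in females, Il10rb, Ptpn1, Adgre1, Itgam, Chil3, Mmp8, Retnlg and Cdh5, were above 0 in log2 fold change in all fits that left out 1 library. All 8 were called without male CRE- 3 or female LKO 2, and 7 without male CRE- 2, male CRE- 4 or male LKO 1. The number was 5 without male CRE- 1, male LKO 2, male LKO 3, male LKO 4 or female LKO 3, 4 without female CRE- 1 and 2 without female LKO 4. None of the 8 was called by edgeR without female CRE- 2, female CRE- 3, female CRE- 4 or female LKO 1, nor with the females fitted alone, and DESeq2 on all libraries called 8. With no filter on low counts edgeR called 7, all but Il10rb.

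The 5 genes whose log2 CPM over the 16 libraries was most like the mean level of the members were Ccl3 (Pearson r = 0.945), Snx20 (0.942), Tspan3 (0.940), Spic (0.935) and Cd180 (0.933). Ccl3 is a chemokine, Spic a transcription factor of iron-recycling macrophages and Cd180 a surface receptor of B cells and macrophages. Spic was at 3.35, 1.28, 1.46 and 6.50 CPM in female CRE- and 37.2, 3.14, 8.98 and 7.43 CPM in female LKO mice, and at 6.13, 1.34, 1.17 and 7.64 CPM in male CRE- and 4.89, 1.62, 2.16 and 1.32 CPM in male LKO mice. Cd180 was at 24.3, 5.61, 9.77 and 5.41 CPM in female LKO mice against 4.21, 2.37, 3.38 and 6.28 CPM in female CRE- mice. Female LKO replicate 1 was the highest mouse for all 5. These were chosen by their r with a mean level that is itself highest in that mouse, so this adds no separate evidence. Without female LKO replicate 1, r over 15 libraries was between 0.887 (Cd180) and 0.924 (Snx20), in genes chosen with it included.

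Promoter sequences of the members were searched for the motifs of the response, since several of them were high in the same mouse. RefSeq windows from 250 bases before to 50 after a start were found for 8 of the 9 members (10 windows, given by RefSeq on GRCm38.p6 and each matched once, without a mismatch, on GRCm39), and Usp18 had none. The ISRE core GAAANNGAA, on either strand (TTCNNTTTC), was in the windows of 4 members, Isg15, Ifit1, Ifit3 and Gbp2, and in 8.56% of all 32851 windows. The GAS motif TTCNNNGAA, its own reverse complement, was in the windows of Irf1 and Ifit2 and in 8.30% of all windows. A match is a run of letters and not a measured binding site, and a missing match in these windows does not show that a gene lacks the element. The Ifit3 stretch lies in an annotated exon and is not shown. The stretches below are 5′ to 3′ on the strand of the gene, lie before the start and outside annotated exons, and have the motif matches in capitals. Isg15 is at GRCm39 chr4:156285313-156285373, minus strand, Ifit1 at chr19:34618160-34618233, plus strand and Gbp2 at chr3:142326346-142326394, plus strand, and these show the ISRE core. Irf1 is at chr11:53660731-53660779, plus strand and Ifit2 at chr19:34527844-34527881, plus strand, and these show the GAS motif.
Isg15: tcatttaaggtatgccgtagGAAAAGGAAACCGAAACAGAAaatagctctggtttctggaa
Ifit1: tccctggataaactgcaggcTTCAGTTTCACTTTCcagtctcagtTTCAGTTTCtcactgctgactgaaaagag
Gbp2: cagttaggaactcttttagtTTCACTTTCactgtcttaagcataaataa
Irf1: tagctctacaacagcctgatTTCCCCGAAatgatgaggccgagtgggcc
Ifit2: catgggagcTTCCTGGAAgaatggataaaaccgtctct
In Isg15 the 3 matches overlapped in a chain, and in Ifit1 2 of the 3 overlapped. Of the 4 members with the ISRE core, Ifit1, Ifit3 and Gbp2 had their highest value in female LKO replicate 1 and Isg15 in female CRE- replicate 4. Of the 4 with a window and no ISRE core, Irf7, Ifit2 and Oasl2 were also highest in female LKO replicate 1 and Irf1 in female CRE- replicate 4.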

How the data were processed

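Liver RNA of 16 mice was sequenced, with 4 mice in each of 4 groups of sex and genotype taken from the labels. Per the file headers and the submitters' processing notes, the authors aligned reads to GRCm39 with STAR 2.7.1a and counted them per RefSeq gene by strand with featureCounts (Subread 2.0.6). The deposited values are counts of single reads per gene, without normalization, so both mates of a pair count, and reads that aligned to several places were not counted. Near-identical copies (Ifit3 and Ifit3b, Oas1a and Oas1g, Tgtp1 and Tgtp2, the Gbp family) are therefore uncertain. Of 41079 genes, 16742 passed filterByExpr of edgeR at a minimum count of 10. Counts were normalized by TMM and fitted in 1 model of 4 groups with edgeR 4.0.16 in R 4.3.3 by the quasi-likelihood test, with Benjamini-Hochberg adjustment over all genes tested and a threshold of 0.05. SE is the log2 fold change divided by the square root of the F statistic. CPM used TMM-scaled libraries, and log2 CPM a prior count of 2. The fit was also run on simulated data, and the outcome of that run is not given here. Totals of 33268424 to 56488920 reads set the precision, and members had from 138 reads (Ifit2) upward in each library.

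The named genes are the 9 members, Gcgr, every gene of the other lists past the threshold or else the 2 with the smallest p in a comparison, the most abundant gene of each marker list, and the 5 genes most like the members. The members and lists were chosen with earlier results of these data known. Ifnk, Ifnb1, Ly6g and the genes with 0 reads were named beyond that rule. The lists hold other antiviral and interferon-gamma-responsive genes, interferon ligands, receptors, signal transducers and inhibitors, and markers of 10 cell types. Socs1 is in both the interferon-gamma and the inhibitor list. Alternatives were DESeq2 1.42.0, RLE normalization, no filter on low counts, each sex fitted alone, a replicate block and leaving out each library in turn. Protein blots, metabolic measures and other data of the study were not analysed here. Promoter windows came from RefSeq (GRCm38.p6).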

Additional observations from a re-analysis of the deposited data

Results flagged for a closer look

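In the groups of 4 mice, 3 member values lay far from the other mice of their group, all in female LKO replicate 1: Ifit1 at 57.2 CPM, Ifit2 at 61.2 CPM and Ifit3 at 53.7 CPM. Each was the highest value of its group, and its gap to the next mouse was a larger share of the group's range than Dixon's limit for 4 values. Gcgr at 127 CPM was low in male CRE- replicate 3. Sums of markers stood apart in male LKO replicate 1 for macrophages and Kupffer cells (1713 CPM) and for monocytes (43.9 CPM), both high. The sum of neutrophil markers was high in female LKO replicate 4 (506 CPM) and that of endothelial markers low in female CRE- replicate 1 (196 CPM). These are 8 values from 80 groups checked. For independent, normal values chance gives about 1 in 20 groups. Several of the 8 share a mouse, and the limit was applied to CPM that were not log-transformed. The number is therefore not a test of an excess.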

How the results depend on the processing

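Members called by edgeR were 0 in each comparison, and in females DESeq2 called 2, the replicate block 1 (Oasl2) and leaving out each library in turn 0 to 1. In males the count was 0 under all alternatives, and in the interaction under all but the fit of each sex alone, which has none. All genes called were 76 in males, 339 with DESeq2 and 26 (without male CRE- 3) to 112 (without female LKO 4) with a library left out. In females 710 were called, 1816 with DESeq2, 119 with the sexes fitted alone, 1244 with the replicate block and 87 (without female CRE- 2) to 1345 (without female LKO 2) with a library left out. The interaction had 0, 371 with DESeq2, 12 with no filter on low counts and 0 to 32 with a library left out (32 without male LKO 1). The median of the members in females was 0.64 and ran from 0.10 to 1.003 with a library left out, and in the interaction 0.58, from -0.0078 to 0.96. The cause of these differences was not tested.

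Of 126 refits of the members' fold changes with all libraries, 122 kept sign and side of the threshold, 3 passed it and 1 changed sign, Isg15 in females at 0.018 with the replicate block. With a library left out, 15 of 27 fold changes changed sign in at least 1 of the fits. In males the ranges were -0.50 to 0.076 (Irf7), -0.22 to 0.28 (Irf1), -0.23 to 0.14 (Ifit1), -0.83 to 0.17 (Ifit2), -0.31 to 0.025 (Ifit3) and -0.49 to 0.43 (Gbp2). In females they were -0.25 to 0.010 (Irf1), -0.15 to 0.22 (Isg15), -0.23 to 1.02 (Ifit1) and -0.15 to 0.73 (Ifit3). In the interaction they were -0.45 to 0.060 (Irf1), -0.21 to 1.05 (Ifit1), -0.0078 to 0.89 (Ifit3), -0.094 to 0.45 (Usp18) and -0.018 to 1.06 (Gbp2).

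Same-numbered CRE- and LKO mice of a sex had correlated deviations from their group means of 0.17, 0.17, 0.14 and -0.013 in males and 0.17, 0.10, 0.12 and 0.028 in females. Of the 16 libraries, 9 correlated best with their own number, as a hint from the data. With the replicate block, 63 genes were called in males and 0 in the interaction, and in females Oasl2, Oas2, Gbp8, Gbp9, Irf3, Alb, the monocyte marker Ccr2 and the macrophage markers Marco and Timd4 passed that did not pass without it.

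Limits are the 4 mice a group, the dependence of the female values of Ifit1, Ifit2, Ifit3, Oasl2 and Gbp2 on female LKO replicate 1, whole liver RNA in which cell types are mixed, and interferon transcripts at few or 0 reads.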
